A study of Mus musculus with 42 samples.

Results

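Colonic organoids that had received IL-1 for 12 h were described across genes, as 3 libraries out of 42 in the series. They were set against 3 untreated organoid libraries labelled 12 h. The libraries were chosen by their labels, which name 10 nM of IL-1α and IL-1β together, whose parts cannot be told apart, for replicates 1, 3 and 4 and no treatment for control replicates 1, 2 and 4. The reads of control replicates 2 and 4 also appear under 72 h labels, so their time in culture is not certain. The labels give the genotype of all 6 as WT and the tissue as intestinal epithelium. The study describes its cytokine-treated colonic organoids as grown from crypts of mice with a Muc2-mCherry reporter, which marks goblet cells. It gives the organoids sequenced after 12 h of cytokine as distal colon organoids. All 6 grew in a medium with EGF, R-spondin1, Wnt3a-conditioned medium, the Wnt pathway activator CHIR and Noggin, an inhibitor of BMP ligands, so that Wnt signaling was kept on and BMP signaling down in both groups. The protocol attached to these samples also lists tamoxifen injections of mice, and the labels do not say whether the donors of the WT organoids received them. The rest of the series holds sorted goblet and stromal cells and organoids given IL-17A, or collected after 72 h, and the organoid comparison asks what these cytokines do to the epithelium itself, in cultures grown from crypts without added stroma.

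IL-1α and IL-1β bind the receptor Il1r1, which pairs with Il1rap and signals through the adaptor Myd88 and the Irak kinases to the kinases that release NF-κB into the nucleus. NF-κB then switches on chemokines, antimicrobial enzymes and cytokines, together with its own inhibitors, which end the response. In the colon this pathway is known for calling in neutrophils and for arming the epithelial surface against bacteria.

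Values are normalized counts, that is, gene reads divided by 1 size factor per library. Differences are IL-1 minus control on the log2(value + 1) scale, with the standard error of the limma fit. Unless another tool or the library set described below is named, a gene was called when limma gave a Benjamini-Hochberg adjusted p under 0.05 over all genes tested and the log2 difference was at least 1 in size. The 6 libraries held 14815170 to 17496147 reads on genes. Of 14654 genes listed, 12913 had a mean of at least 10 and were tested, and their median difference was 0.0028. The labels do not say whether the replicates came from separate mice or cultures, so p-values measure only the spread between these libraries. Within the library sets described below that spread may be technical in part, though control replicate 2 stood apart within its set. Between the sets the spread also takes in a difference in the sex of the donors.

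Before any result, the libraries stood apart in a way that the labels do not give. By the chi-square distance of their reads over all genes, control replicates 1 and 2 and IL-1 replicate 1 (called set A here) resembled one another, as did control replicate 4 and IL-1 replicates 3 and 4 (set B). Distances per gene were 3.02 to 42.7 within sets and 52.4 to 81.7 between them, with the IL-17A libraries at 12 h included. Xist, which female cells transcribe from the inactive X chromosome, was 5.62, 5.61 and 1.11 normalized counts in set A and 28833, 29520.4 and 27073 in set B, while the Y-linked gene Ddx3y was 859, 834 and 751 in set A and 0 in all of set B. By these genes set A came from male and set B from female donors, so the libraries did not all come from the same mouse. Both groups held libraries of both sets, unevenly. Set A was not uniform. Control replicate 2 stood at 25.9 from control replicate 1 and 35.2 from IL-1 replicate 1, which were 11.7 apart. The control and IL-1 libraries of set B were 3.02 to 16.7 apart. Within set A, Hoxb13, a homeobox gene of the distal colon, was 399.5 in control replicate 2 against 3858 in control replicate 1. For called genes and for values that the sets move, differences within the sets or from a fit with the set as a term are given too, a fit that was chosen after seeing the data.

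After 12 h, 7 genes were called, all higher with IL-1, 0.0542% of the genes tested. DESeq2 on the recovered reads called 45 of 14654 genes, 42 higher (0.287%) and 3 lower (0.0205%), among them all 7, and edgeR called 2 of the 7, Duox2 and Ccl20. They were chemokines that attract lymphocytes and neutrophils (Ccl20, Cxcl2), the central complement protein C3, the hydrogen peroxide-producing oxidase Duox2, the sensor of bacterial cell wall fragments Nod2, and inhibitors and modulators of NF-κB (Nfkbiz, Nfkbia). The ratio of group means ran from 43.8 for Cxcl2 and 29.1 for Ccl20 down to 2.30 for Nfkbia. In each of these 7 genes the IL-1 libraries lay above all controls, which held for 685 genes or 5.3% of those tested, while 545 genes or 4.22% lay below all controls. Values below are in the order control 1, 2, 4 and IL-1 1, 3, 4.

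Ccl20 (chr1:83116766-83119167), the ligand of the receptor Ccr6, was 15.9, 16.8 and 42.4 without and 745, 717 and 729.7 with IL-1. The IL-1 libraries were nearly level, and control replicate 4 was the highest control. The log2 difference was 4.95 ± 0.37 (adjusted p = 0.021), at 5.42 in set A and 4.06 in set B. Cxcl2 (chr5:90903871-90905938), which draws neutrophils through Cxcr2, was 1.87, 0.936 and 1.77 in controls and 39.0, 82.2 and 79.2 with IL-1. The controls together held 5 reads against 207, a ratio of 44.6 (95% exact interval 18.8 to 139, counting error only), and IL-1 replicate 1 was the lowest of the treated libraries. Its log2 difference was 4.69 ± 0.45 (adjusted p = 0.042), at 4.08 in set A and 4.88 in set B.

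C3 (chr17:57203970-57228136) was 183, 81.4 and 223 in controls and 2671, 1985 and 1725 with IL-1. Its log2 difference was 3.80 ± 0.38 (adjusted p = 0.042), 4.44 in set A and 3.05 in set B, and the controls spread more than the treated libraries. Duox2 (chr2:122279247-122298449) had the most even controls, 920.3, 935 and 899, and reached 9800.1, 6861 and 5995. This gave the smallest p of all genes, with a log2 difference of 3.01 ± 0.18 (adjusted p = 0.011), 3.40 in set A and 2.83 in set B. Nod2 (chr8:88647315-88688474) was 30.0, 44.0 and 38.9 in controls and 184, 195 and 157 with IL-1, which put the groups far apart, by 2.23 ± 0.22 on the log2 scale (adjusted p = 0.042), 2.31 in set A and 2.14 in set B.

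Nfkbiz (chr16:55811375-55838899) encodes IκBζ, a nuclear partner of NF-κB that selects secondary target genes, and stood at 414, 493 and 411 in controls and 1298, 1186 and 1048 with IL-1. Nfkbia (chr12:55489410-55492647) encodes IκBα, which holds NF-κB in the cytoplasm, and stood at 1021, 1003 and 1091 against 2645, 2329 and 2203. These were the smallest changes that were called, 1.42 ± 0.13 and 1.20 ± 0.11 (adjusted p = 0.042 for each), and in neither gene did the groups overlap. Within sets A and B they were 1.52 and 1.44 for Nfkbiz and 1.39 and 1.05 for Nfkbia. With the set as a term all 7 genes were called too, with differences of 4.74 for Ccl20, 4.48 for Cxcl2, 3.74 for C3, 3.12 for Duox2, 2.22 for Nod2, 1.48 for Nfkbiz and 1.22 for Nfkbia. The count depended on single libraries: it was 0 without control replicate 1, control replicate 2 or IL-1 replicate 3, 1 without IL-1 replicate 1 or 4, and 5, of which 2 were among the 7, without control replicate 4. When a library was left out in turn, Duox2 stayed called in 3 of 6 fits and Ccl20 in 1 of 6, and the log2 differences stayed within 2.80 to 3.16 for Duox2 and 4.72 to 5.39 for Ccl20.

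**Figure D1:**
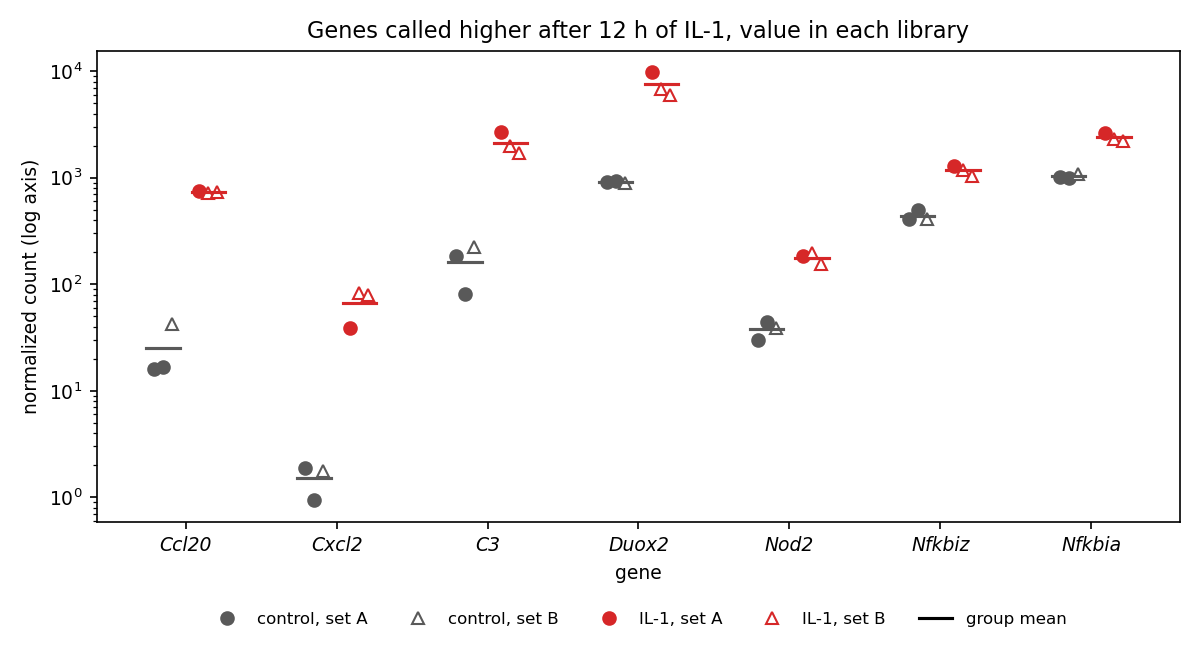
Normalized count (log axis) of the 7 genes called higher after 12 h of IL-1, 1 point per library, with gray for control, red for IL-1, filled circles for set A, open triangles for set B and bars for group means. In every gene the 3 red points lie above the 3 gray ones, from Cxcl2 with controls below 2 to Duox2 with IL-1 libraries between 5995 and 9800.1.

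Since Nfkbia, Cxcl2 and Ccl20 are textbook targets of NF-κB and rose together here, the bases before their transcription starts are shown, with matches to the NF-κB consensus motif in capitals (RefSeq, GRCm38.p6, 250 bases up to the RefSeq start, 5′ to 3′ on the gene's strand). They lie at chr12:55492648-55492897 on the minus strand, chr5:90903649-90903898 on the plus strand and chr1:83116516-83116765 on the plus strand.
Nfkbia: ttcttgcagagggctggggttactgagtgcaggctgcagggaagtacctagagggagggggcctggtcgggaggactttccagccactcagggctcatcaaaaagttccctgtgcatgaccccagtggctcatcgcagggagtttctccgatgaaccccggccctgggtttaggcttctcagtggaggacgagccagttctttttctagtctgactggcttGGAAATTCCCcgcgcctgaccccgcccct
Cxcl2: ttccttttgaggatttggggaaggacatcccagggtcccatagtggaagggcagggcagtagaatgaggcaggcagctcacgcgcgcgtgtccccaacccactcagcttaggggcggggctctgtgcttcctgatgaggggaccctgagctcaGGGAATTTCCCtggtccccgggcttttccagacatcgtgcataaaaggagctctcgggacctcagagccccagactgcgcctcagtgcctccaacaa
Ccl20: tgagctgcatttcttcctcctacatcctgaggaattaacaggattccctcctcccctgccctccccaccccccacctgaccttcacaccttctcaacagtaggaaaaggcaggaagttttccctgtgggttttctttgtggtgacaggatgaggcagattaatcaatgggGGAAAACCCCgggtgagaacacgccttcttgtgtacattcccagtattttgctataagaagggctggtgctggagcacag

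The matches begin 29 bases before the start in Nfkbia, 97 in Cxcl2, where 2 matches overlap, and 80 in Ccl20. The motif was searched on both strands of windows of 250 bases before and 50 after each start, and 6.17% of the 10076 tested genes with a window held it. Among called genes it stood in 3 of the 6 with a window, these 3, and not in C3, Duox2 or Nod2. A match describes letters in a window and is no measure of binding.

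With the set as a term, 27 genes were called, 26 higher (0.201% of those tested) and 1 lower (0.00774%). All 7 genes above were among them, and in 25 of the 27 the groups did not overlap. Of all genes tested, 5.3% lay above and 4.22% below all controls. The other 20 genes are named here after their values were seen, and their adjusted p are from the fit with the set unless it is said otherwise. By limma without the set they had adjusted p of 0.084 and above, while DESeq2 without the set called 23 of the 27. Of the 22 higher genes with a promoter window, 8 held the NF-κB motif.

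Tnfaip3, the deubiquitinase A20 that restrains NF-κB signaling, was 1135, 737 and 987 in controls and 2671, 2464 and 2192 with IL-1, a difference of 1.39 ± 0.17 (adjusted p = 0.033). Zc3h12a, the nuclease Regnase-1 that degrades cytokine transcripts, was 405, 477 and 313 against 2156, 1087 and 1062, a difference of 2.03 ± 0.13 (adjusted p = 0.0033). Both genes had separate groups, and IL-1 replicate 1 was the highest library for Zc3h12a by a wide margin. Cebpd, a transcription factor of the acute-phase response, changed by 1.20 ± 0.15 (adjusted p = 0.033).

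Among cytokines, Tnf was 152, 119 and 157 in controls and 661, 466 and 426 with IL-1 (1.89 ± 0.20, adjusted p = 0.023). Csf1, the growth factor of macrophages, went from 6.56, 10.3 and 30.1 to 134, 212 and 188 (3.28 ± 0.33, adjusted p = 0.022). Its groups were far apart although control replicate 4 stood above the other controls. Ptgs2, the inducible cyclooxygenase of prostaglandin synthesis, was 86.2, 69.2 and 478 in controls and 163, 1094 and 1338 with IL-1. Its groups overlapped and set B was higher than set A in both conditions. The difference of 1.06 in set A and 1.34 in set B was called with the set as a term (1.20 ± 0.15, adjusted p = 0.032), and had an adjusted p of 0.89 by limma without it and 0.98 by DESeq2.

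Of the 28 tested oxidases and antimicrobial proteins, 6 were called with the set as a term. Nos2, the inducible nitric oxide synthase, was 167, 74.9 and 422 in controls and 5143, 4247 and 3743 with IL-1, a difference of 4.37 ± 0.51 (adjusted p = 0.028). Duoxa2, the maturation factor that lies beside Duox2 on chromosome 2, was 263, 178 and 70.7 against 2704, 889 and 805 (3.60 ± 0.16, adjusted p = 0.00062). For Duoxa2 set A was higher than set B in both conditions, and the steps within the sets were alike, 3.64 and 3.56.

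Nox1, the NADPH oxidase of colon epithelium, was 3087, 2705 and 5402 in controls and 6935, 11917 and 11530.5 with IL-1 (1.19 ± 0.07, adjusted p = 0.0032). Pglyrp1, which binds bacterial peptidoglycan, was 4165, 3110.0 and 5422 against 9968, 10986 and 10604 (1.23 ± 0.14, adjusted p = 0.028). In both genes every IL-1 library exceeded every control. Lcn2, which withholds iron from bacteria by binding siderophores, was nearly silent without IL-1, with 1 read over the 3 controls and 72 over the 3 treated libraries, a ratio of 77.6 (95% exact interval 13.5 to 3108, counting error only). Its set-term difference was 4.48 ± 0.57 (adjusted p = 0.036), a value that depends on the added 1 as its controls are near 0.

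Of the remaining genes, Cd177, known as a neutrophil surface protein, was the most abundant, at 4166, 2925 and 7025 in controls and 23772, 20427 and 20300.5 with IL-1 (2.15 ± 0.27, adjusted p = 0.033). Ceacam10, its neighbor on chromosome 7 and a member of the carcinoembryonic antigen family, was 425, 327 and 359.7 against 1331, 929 and 850.0 (1.57 ± 0.15, adjusted p = 0.020). Groups were separate in both. Olfm4, a secreted glycoprotein that marks stem cells in the small intestine, rose from 2 reads over the controls to 90, a ratio of 48.5 (95% exact interval 13.0 to 407, counting error only).

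Smaller or less familiar changes were those of Cap2, an actin regulator (2.23 ± 0.26), Tnfaip2 (2.18 ± 0.20), the RNA helicase Mov10 (1.04 ± 0.09) and Tmem238l (1.03 ± 0.11), with adjusted p between 0.019 and 0.028. Without the set Mov10 and Tmem238l were under the fold minimum, at 0.76 and 0.97. The adjusted p of Mov10 was then 0.89 both by limma and by DESeq2. BC018473 (1.81 ± 0.25, adjusted p = 0.041) was 5.62, 6.55 and 87.5 in controls and 30.1, 247 and 248 with IL-1, so its groups overlapped and set B was higher in each condition. Its adjusted p without the set was 0.89 by limma and 0.98 by DESeq2. The only gene called lower was Gsdmc2, of the gasdermin C family of membrane pore proteins, at 268, 270.4 and 216 in controls and 89.0, 52.0 and 72.7 with IL-1. Its groups did not overlap and it fell by 1.69 on the log2 scale (SE 0.18, adjusted p = 0.023, or 6.4e-09 by DESeq2 without the set). Near-identical copies lie beside it and uniquely mapped reads cannot be shared among them, so its level is uncertain. Gsdmc3, named after its values were seen, was 114, 62.7 and 129 against 34.5, 34.9 and 32.6, with an adjusted p of 0.11 with the set and 0.0055 by DESeq2 without it.

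**Figure D2:**
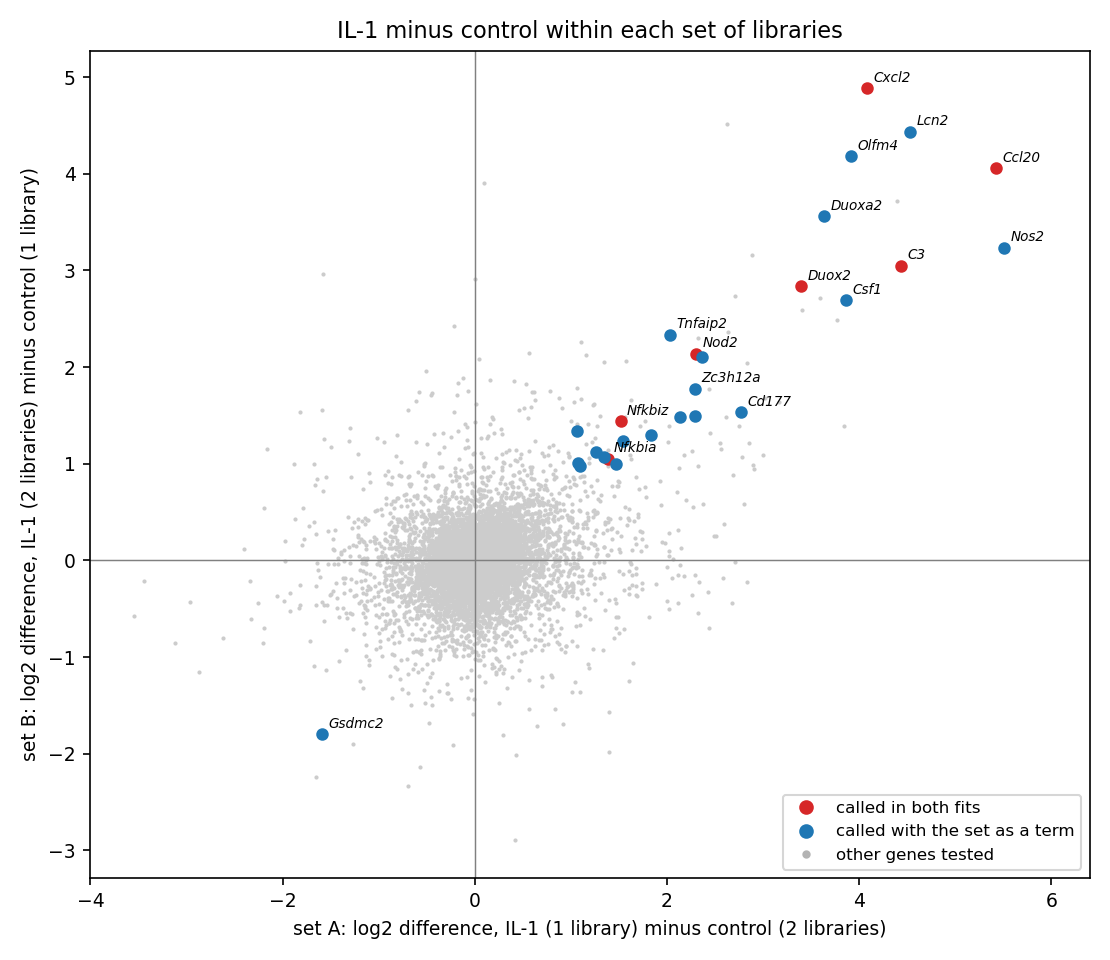
Log2 difference of IL-1 minus control within set A (horizontal axis) and within set B (vertical axis) for each gene tested, on log2(value + 1). The 7 genes called in both fits (red) and the further 20 called with the set as a term (blue) lie above 0.97 in both sets except Gsdmc2, at -1.59 and -1.79, while most other genes (gray) lie around 0.

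At the unadjusted threshold that the study's methods name, p under 0.05 with a log2 difference of at least 1, limma counted 96 genes higher (0.743%) and 23 lower (0.178%). DESeq2, the tool the study used, counted 119 higher (0.812%) and 78 lower (0.532%) on the recovered reads. In the gene lists that follow, an unadjusted count is limma's count at this threshold, and medians are read against the 0.0028 of all genes tested. The 37 lists held 784 tested genes, and 6 lists had a called member.

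Chemokines with the CXC and related motifs had the highest median of all lists, 1.52 (1.42 with the set), with 8 members tested, 1 called and 5 higher at the unadjusted threshold. All 8 differences were positive, from 0.46 to 4.69. Cxcl1, the close relative of Cxcl2, was 25.3, 9.36 and 19.4 in controls and 101, 98.2 and 111 with IL-1, with separate groups and a log2 difference of 2.56 ± 0.38 (adjusted p = 0.16, 0.058 with the set and 3.1e-08 by DESeq2). Cxcl5, another neutrophil attractant, was 65.6, 16.8 and 197 against 165, 411 and 455, where control replicate 4 exceeded IL-1 replicate 1 (2.35 ± 0.85, adjusted p = 0.89). CC chemokines, by contrast, had a median of 0.20 over 6 tested (-0.08 with the set), and Ccl20 was the only one called. Ccr4, a receptor of T cells that the study names, stayed below the filter at 0.937, 3.74 and 0 in controls and 16.7, 8.50 and 17.7 with IL-1.

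The next highest median, 1.30, belonged to the 6 tested genes of calcium-activated chloride channel regulators, secreted or surface proteins of mucus and fluid handling. Limma called none and put 4 higher at the unadjusted threshold. Clca3b, the most abundant of these 4, was 4287, 9159 and 7012 in controls and 13055, 18031 and 19194 with IL-1, so every treated library exceeded every control (1.35 ± 0.29, adjusted p = 0.51 by limma and 0.0051 by DESeq2). Clca1, a goblet cell product, differed by 0.40 ± 0.24 (adjusted p = 0.89). These genes are tandem copies, and reads that fit several of them are lost to unique mapping.

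The list of NF-κB subunits and feedback genes had 19 members tested, a median of 0.30, 2 called members and 4 with the set as a term. The called ones were inhibitors and modulators of the pathway, not its subunits. The subunits Nfkb2 and Relb were given as examples after their values were seen. Nfkb2 was 917, 898 and 1038 in controls and 1377, 1256 and 1262 with IL-1, and Relb was 922, 935 and 812 against 1186, 987 and 1119. Both had separate groups with small differences, 0.45 ± 0.11 and 0.30 ± 0.12, that were not called (adjusted p = 0.69 and 0.89).

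The receptor side gave no call by limma, with or without the set. The list of IL-1 receptor and signaling genes had 18 tested, a median of 0.048 and no member past the unadjusted threshold. Il1r1, the receptor itself, was 169, 274 and 126 in controls and 81.3, 123 and 147 with IL-1, so the groups overlapped (log2 difference -0.66 ± 0.34, adjusted p = 0.89), and the difference was -1.39 in set A and 0.09 in set B. The co-receptor Il1rap was 148, 130.1 and 186 against 124, 214 and 219 (0.23 ± 0.27). Il1rn, the secreted receptor antagonist, was 3731, 4765 and 3945 against 4411, 6000.0 and 6357 (0.42 ± 0.17, adjusted p = 0.89), and IL-1 replicate 1 fell among the controls. The kinase Irak1 and the adaptor Tab2 differed by 0.03 ± 0.11 and -0.01 ± 0.12.

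Oxidases and antimicrobial proteins had a median of 0.54 over 28 tested, 1 call, 6 calls with the set and 8 members higher at the unadjusted threshold. Complement and acute-phase genes had a median of 0.53 over 13 tested, with C3 as the called member. Lbp, which carries bacterial lipopolysaccharide, was named after its values were seen: it had 6 reads over the controls and 136 over the treated libraries, a ratio of 24.4 (95% exact interval 10.9 to 67.8, counting error only), with an adjusted p of 0.16 by limma and 1.7e-07 by DESeq2. Microbial sensors (36 tested, median 0.31) had Nod2 as their only call. The TNF family (31 tested, median 0.26) and the colony-stimulating and IL-6 family (14 tested, median 0.39, or 0.14 with the set) had no call by limma without the set, and 2 and 1 with it. DESeq2 called Tnf (adjusted p = 9.7e-11), Tnfaip2 (4.9e-07) and Csf1 (6.8e-09) of these without the set. Interferon-stimulated genes (31 tested) had a median of 0.39 (0.56 with the set), no call and 1 member higher at the unadjusted threshold.

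The IL-1 family list (7 tested, median 0.65, or 0.36 with the set) had 2 members higher at the unadjusted threshold, Il1a (1.93, adjusted p = 0.89) and the alarmin Il33 (1.75, adjusted p = 0.89). The list of IL-17 and IL-22 cytokines and receptors (10 tested, median 0.13) had none. Genes of endoplasmic reticulum stress had a median of 0.34 over 37 tested and no call by limma. In 16 of them all IL-1 libraries lay above all controls, which held for 5.3% of all genes tested. The chaperone Hspa5 was 13640.2, 11770.2 and 11649 in controls and 18813, 17245 and 17565 with IL-1 (0.54, adjusted p = 0.48 by limma and 0.0071 by DESeq2, under the fold minimum). Genes of repair, YAP and squamous epithelium (45 tested, median 0.38) and of the BMP and TGF-β pathway (29 tested, median 0.084) had no call by limma either. Bmp2, named for the study's interest in BMP ligands after its value was seen, was 1073, 562 and 735 against 1239.9, 828 and 761, with overlapping groups (0.27 ± 0.28, adjusted p = 0.89).

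**Figure D3:**
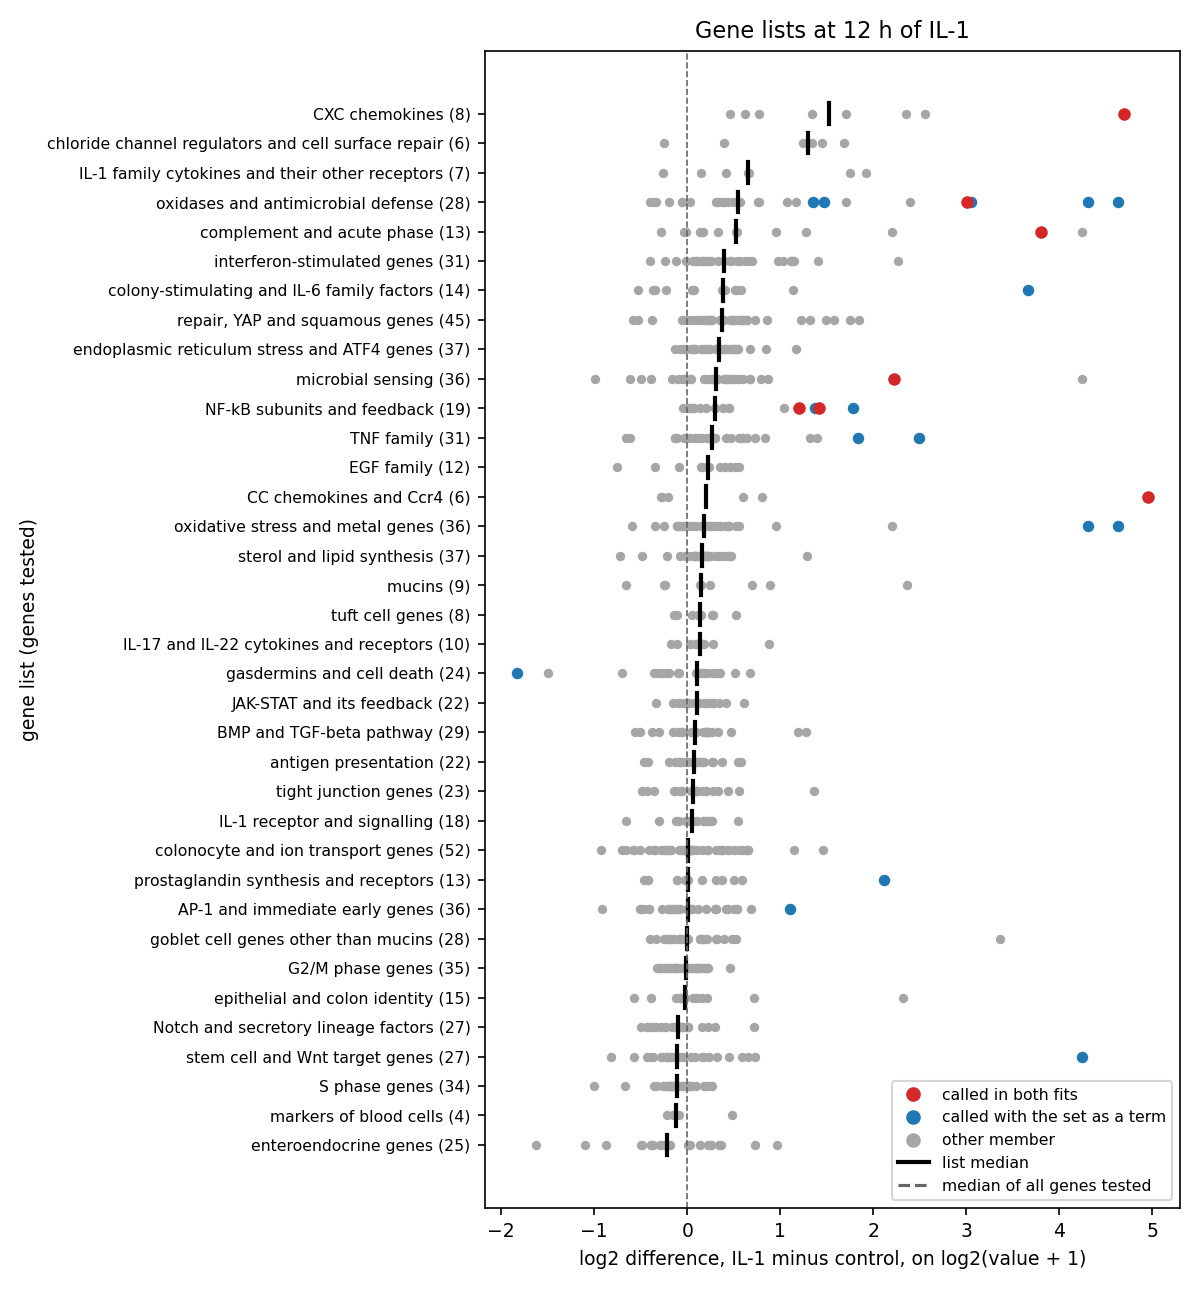
Log2 difference of IL-1 minus control for each tested member of the gene lists, 1 row per list with the number tested in parentheses and a black bar at the list median. Red members were called in both fits and blue ones with the set as a term. CXC chemokines (1.52) and chloride channel regulators (1.30) have the highest medians. The dashed line is the median of all genes (0.0028), and the S phase (-0.11) and enteroendocrine (-0.21, or 0.12 with the set) lists lie below it. The stromal list, with 1 gene tested, is left out.

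Goblet cell and mucin genes, the study's interest, gave no call by limma at 12 h. The mucin list had a median of 0.15 over 9 tested and 1 member higher at the unadjusted threshold. Muc2, the main mucin of the colon, was 35023, 48864 and 53229 in controls and 39195, 63838 and 60621 with IL-1. The groups overlapped, with IL-1 replicate 1 among the controls, and the log2 difference was 0.25 ± 0.24 (adjusted p = 0.89) or 0.07 ± 0.15 with the set. Muc1, a transmembrane mucin, was 89.0, 17.8 and 119 against 276, 345 and 286, with separate groups and a difference of 2.36 ± 0.65 that limma did not call (adjusted p = 0.89, 0.27 with the set) and DESeq2 did (adjusted p = 0.046). Muc13, another transmembrane mucin, was 14863, 10874 and 14146 against 23535, 20584 and 20002, with a difference of 0.69 ± 0.15 (adjusted p = 0.51 by limma and 0.020 by DESeq2, under the fold minimum).

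Muc20 was 22.5, 12.2 and 16.8 in controls and 8.90, 34.9 and 19.6 with IL-1, with no direction beyond its spread (0.14 ± 0.54, and -0.11 with the set). It overlaps Muc4 on the opposite strand, and the strand setting of the counts is not given in the sources used here. Goblet cell genes other than mucins had a median of 0.0022 over 28 tested, with no call. Fcgbp, the mucus-binding protein, was 31744, 27594 and 27082 against 34306, 31502 and 29524. Atoh1, the transcription factor that commits cells to the secretory lineage, was 566, 632 and 558 against 651, 505 and 514. Neither gene had separate groups. Muc5b and Il17a, which the study names, and the decoy receptor Il1r2 were not analysed here.

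Of stem, cycling and absorptive genes, limma called none without the set, and with it Olfm4 of the stem cell and Wnt list. Lgr5, the Wnt target that marks crypt stem cells, was 1206, 2749 and 1308 in controls and 762, 1149.6 and 893 with IL-1, so all treated libraries were lower, and control replicate 2 stood far above the other controls (-0.82 ± 0.33, adjusted p = 0.89, or -0.45 without control replicate 2). In a bulk library fewer cells of a type and less RNA per cell cannot be told apart. Mki67, expressed in dividing cells, differed by 0.06 ± 0.20, and the S phase and G2/M lists had medians of -0.11 and -0.0097 (34 and 35 tested, no member past the unadjusted threshold), or -0.25 and -0.13 with the set. Alpi, intestinal alkaline phosphatase, was 184, 318 and 147 against 142, 129 and 138 (-0.58 ± 0.29, adjusted p = 0.89). Control replicate 2 was again the highest control, and the Alpi difference was -0.76 in set A and -0.13 in set B. The transporter Slc16a10 was 126, 117 and 124 against 108, 132 and 135, and Chp2, a regulator of sodium-proton exchange, was 1932, 981 and 1029.7 against 1695, 1076 and 1089, each with overlapping groups. Chgb, of enteroendocrine cells, was higher in set A (3027, 3054 and 3291) than in set B (1227, 1233 and 1249), with differences of 0.11 and 0.02 within the sets.

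Markers of other cells bear on the immune-type genes above. All 10 epithelial markers were listed, with sums of 162220 to 223012 in controls and 180819 to 204178 with IL-1. Of 9 stromal markers 2 had values, with sums of 134 to 349.6 in controls and 82.9 to 336 with IL-1. Of 8 blood cell markers 3 had values, with sums of 2192 to 2766 in controls and 3148 to 3570 with IL-1, nearly all of it Ly6g. That gene, a neutrophil marker, was 2726, 2122 and 2355 in controls and 3103, 3373 and 3549 with IL-1 (0.48 ± 0.12, adjusted p = 0.77). The pan-leukocyte gene Ptprc was at or near 0 in all libraries, 1.87, 8.42 and 1.77 against 0, 9.45 and 5.59, and the blood markers without Ly6g summed to 12.4 to 70.2 in controls and 20.5 to 44.5 with IL-1.

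IL-17A, given at 10 nM for 12 h, was compared with IL-1 directly in a fit over both tables. Both comparisons use the same control libraries, so the cytokines were set against each other directly. No gene of 12949 tested was called between the cytokines by limma (0%), with 35 at the unadjusted threshold, and edgeR called none, with 41. Lcn2 was not in this fit. With the set as a term 6 genes were called (0.0463%): C3, Csf1, the leukocyte adhesion molecule Icam1 and Abcc8 were higher with IL-1, and Plat and Sprr2h with IL-17A, Icam1, Abcc8, Plat and Sprr2h being named after their values were seen.

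On a scale common to both tables, C3 was 2784, 2064 and 1794 with IL-1 and 372, 422 and 506 with IL-17A, so the libraries did not overlap. The log2 difference between the cytokines was 2.34 ± 0.35 (adjusted p = 0.43, or 0.028 with the set). Csf1 differed by 2.75 ± 0.54 (adjusted p = 0.99, or 0.0071 with the set), at 14.5, 33.3 and 36.6 with IL-17A. Nfkbiz went the other way and reached 2370.4, 2344 and 2226 with IL-17A, a difference of -0.92 ± 0.11 (adjusted p = 0.31, or 0.0050 with the set), which is under the fold minimum. Duox2 was 10320.5, 10153 and 9784 with IL-17A and differed between the cytokines by -0.39 ± 0.16 (not called in either fit, adjusted p = 0.56 with the set). Against the shared controls the differences with IL-1 and IL-17A were 4.96 and 3.97 for Ccl20, 4.72 and 2.91 for Cxcl2, 4.63 and 3.95 for Nos2, and 0.25 and 0.29 for Muc2, without a call between the cytokines in any of these.

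The same cytokines were also given for 72 h. The controls of both times are not separate: 12 h control replicates 2 and 4 hold the same reads as 72 h control replicates 1 and 4 in 14408 of 14410 genes, so 2 of 3 control libraries serve both comparisons. Time in culture and duration of IL-1 therefore cannot be told apart. The difference from the labelled controls was not the same at both times for 2259 of 12953 genes (17.4%), by an interaction in limma that counts the repeated libraries at each time. None of the 7 genes called at 12 h was among them, and 3 of the 27 called with the set were (Lcn2, Nox1 and Mov10). With each control library entered once, IL-1 at 12 h and at 72 h differed in 2711 of 12963 genes (20.9%), with 1 of the 7 (Duox2) and 6 of the 27 (also Gsdmc2 and Pglyrp1). That fit set the IL-1 libraries against each other directly, so the controls entered only its scaling and spread and it is not the interaction. The interaction was not fitted with the library set.

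Duox2 was 27608, 12032 and 11281 after 72 h of IL-1, a log2 difference of 4.18 from its controls against 3.01 at 12 h, and the interaction was -1.18 ± 0.41 (adjusted p = 0.055). With each control once its IL-1 libraries differed by -1.16 ± 0.30 (adjusted p = 0.012). C3 stood 4.71 above its controls at 72 h and 3.80 at 12 h, Ccl20 3.05 and 4.95, Nfkbia 2.08 and 1.20, and none of these interactions was called (adjusted p = 0.28, 0.14 and 0.15). Nox1 turned from a difference of 1.47 at 12 h to -1.43 at 72 h, with 1453, 3397 and 766 in the late IL-1 libraries, an interaction of 2.90 ± 0.70 (adjusted p = 0.015). For Lcn2 the difference was 4.31 at 12 h and 6.45 at 72 h, an interaction of -2.14 ± 0.66 (adjusted p = 0.035).

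Genes of growth and transport that were not called at 12 h were called in the comparison of times. Of the S phase list 33 of 34 genes and of the G2/M list 30 of 35 were called over time, beside 17.4% of all genes tested. This interaction counts the repeated controls at each time and has no term for the library set. Mki67 was 2085, 2413 and 516 after 72 h of IL-1 against 8129, 12224 and 12370.3 after 12 h, an interaction of 3.04 ± 0.65 (adjusted p = 0.010). Lgr5 was 142, 108 and 27.4 after 72 h, below all control and 12 h libraries (interaction 3.56 ± 0.77, adjusted p = 0.011). Slc16a10 was 21.7, 22.9 and 9.87 after 72 h (interaction 2.76 ± 0.41, adjusted p = 0.0053). Chp2 was 930, 907 and 988 in the 72 h controls and 5513, 2518 and 3733 after 72 h of IL-1. Its difference was 1.98 (interaction -1.98 ± 0.44, adjusted p = 0.011). The study reports both Slc16a10 and Chp2 as decreased by IL-1 and IL-17. Muc13 was 66628, 36252 and 53138 after 72 h, a difference of 2.03 against 0.69 at 12 h (interaction -1.33 ± 0.31, adjusted p = 0.013). Muc1 differed by 4.02 at 72 h. Muc2 was 46324, 44984 and 51066 in the 72 h controls and 9702, 46715 and 31766 after 72 h of IL-1, a difference of -0.96. Atoh1 differed by -0.87 at 72 h. The interactions of Muc1, Muc2 and Atoh1 were not called (adjusted p = 0.29, 0.18 and 0.30). Among the late IL-1 libraries Xist was 3.61, 26233 and 8.78, so they also mixed the kinds of library described above, and its part in the interaction was not tested.

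**Figure D4:**
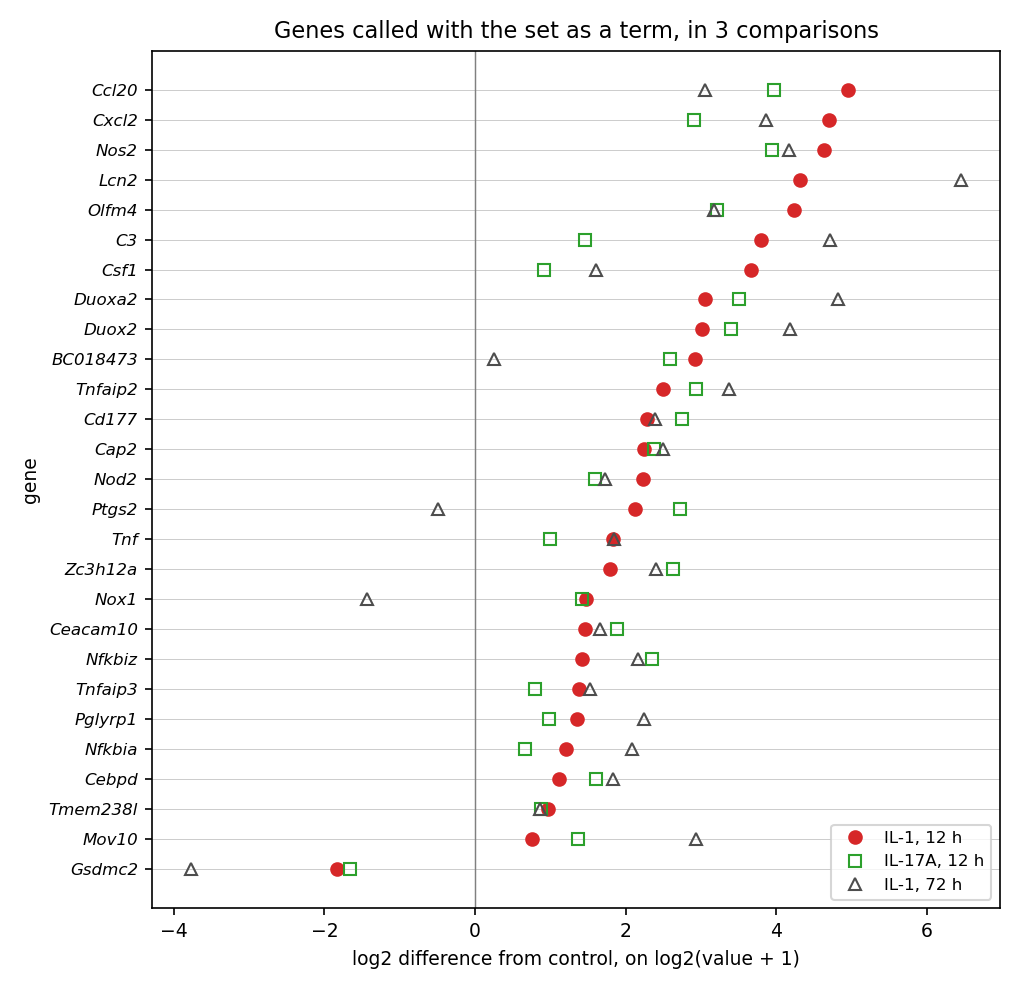
Log2 difference from control on log2(value + 1) for the 27 genes called with the set as a term, for IL-1 at 12 h (red circles), IL-17A at 12 h (green squares) and IL-1 at 72 h (gray triangles). IL-1 and IL-17A at 12 h share their controls and 2 of 3 controls are common to both times. Lcn2 has no IL-17A value. Nox1 stands at 1.47 and 1.42 at 12 h and at -1.43 at 72 h, and Csf1 at 3.67 with IL-1 and 0.92 with IL-17A.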

How the data were processed

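RNA-seq of organoids was used from 3 of the 12 tables of the series, 15 libraries by label and 13 distinct ones, as 2 controls recur under both times. The authors mapped reads uniquely to mm10 with STAR 2.5.3 and deposited a normalized signal per gene, counts divided by DESeq2 1.28.1 size factors within each table. The counting program, annotation and strand setting are not given in the sources used here. Every value was a whole multiple of 1 step per library (100% within 0.1), so whole reads were recovered, 14815170 to 17665812 per library at 12 h. A count of 0 allows 3 reads, counting error only. Positions are from GENCODE M21, GRCm38.

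Genes whose mean reached 10 were fitted on log2(value + 1) with limma 3.58.1, with a trend and no block. Times and cytokines were compared over both tables, without names that several rows carry. Lists and named genes were chosen with earlier results of these data known. Named genes were the 15 largest calls per direction with separate groups, called list members (or, without any, the 3 most abundant), IL-1 receptors and genes the study names. Other settings tried were a pseudocount of 0.1 or 10, all genes unfiltered, a minimum mean of 50, upper-quartile scaling, edgeR 4.0.16 and DESeq2 1.42.0 on recovered reads, the replicate number as a block and leaving out each library. The set as a term and each control library entered once were chosen after seeing the data. On simulated data (12704 genes) limma called 36% of genes changed by 1 on the log2 scale, 86% at 1.5, 88% at 2 and 94% at 3. There, 5 unchanged genes were called too. In the measured libraries limma without the set called 7 genes, and did not call Nos2 (log2 difference 4.63), Csf1 (3.67) or Duoxa2 (3.05). Whether the percentages hold for libraries that fall into sets A and B was not tested.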

Additional observations from a re-analysis of the deposited data

Results flagged for a closer look

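For 8 of the named genes the difference from the labelled controls was not the same at 12 h and 72 h by the limma interaction. The 12 h minus 72 h difference was 3.565 on the log2 scale for Lgr5, 3.04 for Mki67, 2.90 for Nox1, 2.76 for Slc16a10, -1.33 for Muc13, -1.98 for Chp2, -2.14 for Lcn2 and -2.18 for Mov10. Both times share 2 of their 3 control libraries, so time in culture and duration of IL-1 cannot be told apart. In a direct comparison of the IL-1 libraries at 12 h and 72 h, which is not the interaction, all 8 were called. Each control library entered that fit once, for scaling and spread only.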

How the results depend on the processing

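Against the 7 genes called at 12 h, a mean of at least 50 gave 4, edgeR 2 (135 at unadjusted p), DESeq2 45 (197 at unadjusted p), no adjustment of p 119, blocking on the replicate number 100, the set as a term 27 and IL-1 replicates 3 and 4 averaged 0 (77 at unadjusted p). Leaving out 1 library gave 0 to 5. Pseudocounts of 0.1 and 10, no filter and upper-quartile scaling each gave 7. The replicate numbers share only 2 values between groups and the labels do not tie them: the correlation of deviations was 0.62 for number 1 and 0.64 for number 4, and control 4 with IL-1 3 gave 0.63. Between 12 h and 72 h the count of 2259 became 856 with the replicate block and 1258 to 2872 on leaving out 1 library. The direct comparison of IL-1 libraries, with each control library entered once, gave 2711. Between the cytokines the count of 0 became 35 at unadjusted p, 27 with the replicate block, 6 with the set and 0 to 1 on leaving out 1 library.

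Blocking on the number called all 27 genes of the set fit, Ptgs2 and Gsdmc2 included, and Clca3b. That block rests on the pairs numbered 1 and 4 alone, whose libraries also enter the set fit, so it gives no separate support. Directions that turned belong to genes without a call. Chp2 was -0.019 with upper-quartile scaling, -0.041 by edgeR and -0.031 by DESeq2. With the replicate block Muc20 was -0.52, Atoh1 0.043, Slc16a10 -0.045, Chp2 -0.054, Chgb 0.073, Mki67 -0.081 and Il1rap -0.011. With the set Muc20 was -0.11, Slc16a10 -0.027, Chgb 0.065 and Mki67 -0.11, and with the averaged libraries Muc20 was -0.078, Slc16a10 -0.022 and Mki67 -0.037. Leaving out 1 library gave -0.21 to 0.32 for Chp2, -0.31 to 0.62 for Muc20, -0.030 to 0.13 for Slc16a10 and -0.041 to 0.26 for Mki67. The causes were not tested.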
